A study of Mus musculus with 15 samples.

Results

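The 10 genes described here carry death signals from the cell surface to the caspases: the ligands Tnfsf10 (TRAIL) and Fasl, the receptors Tnfrsf10b (the mouse TRAIL receptor), Fas, Tnfrsf1a and Tnfrsf1b, the adaptor Fadd, the initiator caspase Casp8, its inhibitor Cflar and the necroptosis kinase Ripk3. They were chosen by name with earlier results of these data known, so counts of members called are a description and no independent test. The paper had already reported Tnfrsf10b as high in the LCNEC cells and tumors. All 10 were found among the 55359 genes of the matrix of normalized counts. The mRNA of 15 mouse samples was measured by poly-A selected sequencing. 46LCNEC_cell was a line that grew attached (dishes A, B and C), made from a large cell neuroendocrine carcinoma of a QKO mouse infected with Ad-CMVcre. 57SCLC_cell was a line that grew in suspension (flasks A, B and C, passage 11), made from a small cell lung carcinoma of a QKO mouse infected with Ad-K5cre. Among its altered alleles, the QKO mouse has floxed Rb1 and Trp53 and a null Rbl1, and both lines came from it. 46LCNEC_allo (tumors 312, 319 and 321) and 57SCLC_allo (tumors 275, 316 and 317) were tumors grown from these cells under the skin of immunocompetent QKO mice, and Lung (CT3, CT4 and CT5) was normal lung of littermates of the recipients, whose own genotype and age are not given in the sources used here. Each tumor type was thus represented by 1 line, its dishes or flasks were not separate tumors, and p-values for cells measure only the spread between cultures. The titles of the cell samples carry a field shaped like a date, whose meaning the labels do not give. It differs between the lines and also between A, B and C within each line. Neither line nor culture letter can thus be told apart from it.

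Binding of TRAIL or Fas ligand gathers Fadd and Casp8 at the receptor, where Casp8 is activated and in turn activates the downstream steps of apoptosis, directly or through Bid and the mitochondria. Cflar (cFLIP) takes the place of Casp8 in this complex and restrains it. Tnfrsf1a first builds a survival complex with Ripk1, and when Casp8 is blocked, Ripk1 and Ripk3 can pass the signal to Mlkl, which opens the membrane in necroptosis. Tnfrsf1b has no death domain. Many small cell lung carcinomas are known for low expression of Casp8 and of death receptors.

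The starts of 3 members are shown because Fas and Ripk3 were the members with no or almost no reads in 57SCLC_cell, while Fadd was read in every sample and called in no comparison. Each window holds 250 bases before and 50 after the start of the gene in RefSeq (GRCm38.p6), read in the direction of the gene, and its position was found by an exact match to GRCm39. Capitals mark CG dinucleotides.
Fas (chr19:34267809-34268108, plus strand): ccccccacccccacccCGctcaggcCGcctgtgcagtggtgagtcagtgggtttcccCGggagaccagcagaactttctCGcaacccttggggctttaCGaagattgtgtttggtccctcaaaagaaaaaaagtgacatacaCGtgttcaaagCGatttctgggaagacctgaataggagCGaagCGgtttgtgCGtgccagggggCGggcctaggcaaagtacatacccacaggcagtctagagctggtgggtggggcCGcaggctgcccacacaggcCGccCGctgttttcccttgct
Ripk3 (chr14:56026265-56026564, minus strand): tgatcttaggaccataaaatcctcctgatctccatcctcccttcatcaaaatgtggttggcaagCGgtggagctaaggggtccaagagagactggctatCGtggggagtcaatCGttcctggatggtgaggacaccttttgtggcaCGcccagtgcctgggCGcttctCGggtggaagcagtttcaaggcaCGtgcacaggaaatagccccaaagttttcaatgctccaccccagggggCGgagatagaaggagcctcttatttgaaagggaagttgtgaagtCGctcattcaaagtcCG
Fadd (chr7:144136129-144136428, minus strand): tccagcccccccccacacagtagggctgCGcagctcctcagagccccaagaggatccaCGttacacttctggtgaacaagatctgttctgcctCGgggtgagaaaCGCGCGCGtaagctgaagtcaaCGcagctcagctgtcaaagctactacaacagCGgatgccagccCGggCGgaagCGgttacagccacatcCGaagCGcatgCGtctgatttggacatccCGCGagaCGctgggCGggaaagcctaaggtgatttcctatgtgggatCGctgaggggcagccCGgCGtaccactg
The window of Fas held 14 CG dinucleotides, that of Ripk3 10 and that of Fadd 22. The median over all 32851 RefSeq windows of this length was 7, and 36.3%, 43.5% and 23.1% of them held at least as many. A GC box (GGGCGG on either strand, which itself contains 1 CG) was found in all 3 and in 35.7% of all windows. RefSeq windows were at hand for 9 members, the exception being Tnfrsf10b. They held between 5 (Casp8) and 22 CG, and 5 of the 9 held the GC box. These letters are a description of the windows, and methylation was not measured.

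The values are normalized counts, that is, reads counted per gene divided by the DESeq2 size factor of the sample. Between 9480244 and 44876572 reads were counted per sample. Flask C of 57SCLC_cell stood apart from flasks A and B over all genes, with a chi-square per degree of freedom of 144 between A and C against 2.80 between A and B. The limma package was run on log2(normalized count + 1) to compare groups, and a gene was called higher or lower where its adjusted p was 0.01 or less and its fold change 2 or more. The neuroendocrine markers set the lines apart. In 57SCLC_cell, Chga ranged from 8951 to 9885 normalized counts, against 2.31 to 6.62 in 46LCNEC_cell. Ncam1 was high in 46LCNEC_cell (28614 to 31510), while Scg3 was at or under the floor of 3 reads there. Of Chga, Scg3 and Ncam1, only the mRNA of Ncam1 was thus high in the LCNEC line. The paper's label also draws on histology and on protein staining, such as NCAM in the cells and chromogranin A in the tumors. In the LCNEC tumors Ncam1 was at 3058 to 7384. The sum of the 8 neuroendocrine markers was 3127 to 7475 there, against 29356 to 32359 in the cells. Most of this sum was Ncam1 in both groups, so it largely repeats that gene. Means of Chga, Scg3 and Elavl4 were higher in these tumors than in the cells, and those of Syp, Elavl3, Calca and Uchl1 lower. The lower Ncam1 stood beside the differences between tumors and cells described here, and its part in them was not tested.

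Both ligands exhibited their highest values in normal lung, with tumor 321 close to it for Fasl. Tnfsf10 had 7709, 8023 and 7891 normalized counts in Lung. It had 258, 373 and 542 in 46LCNEC_allo (tumors 312, 319 and 321) and 163, 65.1 and 103 in 57SCLC_allo (tumors 275, 316 and 317). In the cultured cells it was low, at 5.63, 15.5 and 10.8 in dishes A, B and C of 46LCNEC_cell and 37.6, 27.7 and 20.8 in flasks A, B and C of 57SCLC_cell. No neighbors in the order Lung, 46LCNEC_allo, 57SCLC_allo, 57SCLC_cell and 46LCNEC_cell overlapped. Fasl, the ligand of Fas that cytotoxic lymphocytes use, had 45.6, 53.9 and 41.0 in Lung. In the tumor groups it was read at 0 to 6.81 normalized counts in all samples but tumor 321, which had 32.1 from 29 reads. The other tumors of 46LCNEC_allo had 0 and 1.05. The T and NK cell markers (9 genes such as Cd3e and Nkg7) summed to 1670 in tumor 321 and to 114 and 72.6 in tumors 312 and 319, and their part in the Fasl value was not tested.

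The 4 receptors were all lowest in 57SCLC_cell. Tnfrsf10b had 1752, 1714 and 1711 normalized counts in 46LCNEC_cell and 79.1, 63.3 and 75.0 in 57SCLC_cell. The allografts had 1543, 1355 and 1045 (46LCNEC_allo) and 314, 277 and 317 (57SCLC_allo), and Lung had 901, 692 and 859. The 5 groups did not overlap for this gene, and the LCNEC line and its tumors lay above Lung while both SCLC groups lay below it. Fas was not detected in 57SCLC_cell, with 0 reads in each of the 3 flasks, which were sequenced more deeply than any other sample. The chosen floor of 3 reads per flask is 1.67 normalized counts there, as a mean over the flasks. In 57SCLC_allo, Fas had 38.3, 29.7 and 42.0. It had 101, 145 and 161 in 46LCNEC_cell, 250.3, 239 and 238 in 46LCNEC_allo and 1495, 1402 and 1408 in Lung, again with no overlap between groups.

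Tnfrsf1a, the TNF receptor with a death domain, was the most even of the receptors. It had 3921, 4216 and 4207 normalized counts in 46LCNEC_cell, 6275, 3609 and 3955 in 46LCNEC_allo and 4129, 3907 and 4646 in Lung, and these 3 groups overlapped. 57SCLC_cell had 1070, 1083 and 762 and 57SCLC_allo 1870, 1455 and 1756, both below the other groups. Tnfrsf1b, the TNF receptor that signals survival through Traf2, had 3998, 3547 and 3640 in 46LCNEC_cell and 4462, 3910 and 4346 in 46LCNEC_allo, which overlapped. It had 2438, 2173 and 2696 in Lung, 1307, 730 and 954 in 57SCLC_allo and 285, 301 and 268 in 57SCLC_cell, so that Lung lay between the lines.

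The adaptor and the initiator caspase varied far less than the receptors. Fadd had 117, 70.6 and 104 normalized counts in 46LCNEC_cell, 130, 83.2 and 150 in 46LCNEC_allo and 182, 207 and 122 in 57SCLC_cell. In 57SCLC_allo it had 122, 117 and 129, and in Lung 150, 151 and 126. Each group overlapped its neighbor in the order of means. Casp8 had 1720, 1833 and 2009 in 46LCNEC_cell, 1630, 1754 and 1693 in 46LCNEC_allo and 1706, 1402 and 1531 in Lung, which overlapped in that order, and 1193, 1163 and 981 in 57SCLC_cell and 1297, 1073 and 1151 in 57SCLC_allo, which overlapped each other and lay below the rest. Of the exon bases of Fadd, 14.8% lie opposite other genes, and the strand setting of the counting is not given in the sources used here.

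Cflar and Ripk3 were also lowest in 57SCLC_cell. Cflar had 6964, 6473 and 6767 normalized counts in Lung, 2070, 2399 and 2862 in 46LCNEC_allo and 1603, 1383 and 1344 in 46LCNEC_cell. 57SCLC_allo had 1058, 991 and 1127 and 57SCLC_cell 486, 483 and 477, the lowest level, and no groups overlapped. Ripk3 was the other member missing from 57SCLC_cell, where 1 read was counted in flask C and none in flasks A and B. It had 247, 171 and 234 in 57SCLC_allo, 383, 396 and 364 in 46LCNEC_cell and 407, 341 and 306 in Lung, and the last 2 of these groups overlapped. The highest values were those of 46LCNEC_allo, with 2347, 1531 and 914 in tumors 312, 319 and 321.

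**Figure D1:**
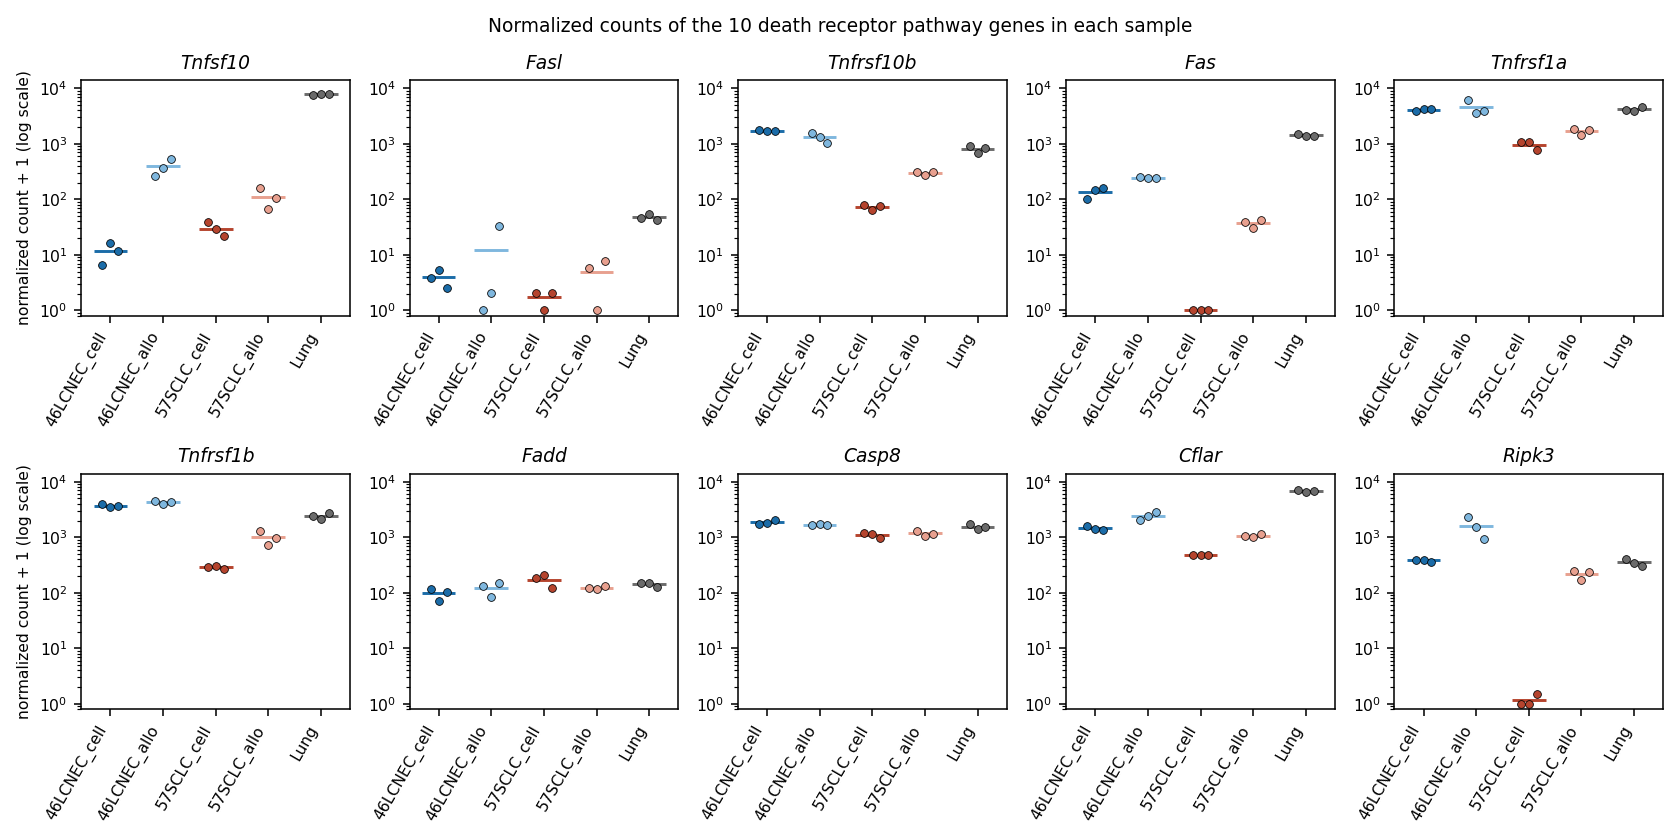
Normalized counts (plus 1, log scale) of the 10 members in each of the 15 samples. Points are samples and bars are group means (n = 3). Fas and Ripk3 lie at the bottom of the scale in 57SCLC_cell, and Tnfsf10 and Cflar are highest in Lung. Fadd and Casp8 vary less across the groups than the other members, with Casp8 lower in both 57SCLC groups.

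Levels of different genes were compared per kb of exon. In 46LCNEC_cell, Tnfrsf1a had the highest level at 1307 ± 53.3 normalized counts per kb (SD, n = 3), followed by Tnfrsf1b at 753 ± 48.1 and Casp8 at 602 ± 47.3. In 57SCLC_cell, Casp8 led at 361 ± 37.2 per kb with Tnfrsf1a at 308 ± 57.7, and Fadd (43.6 ± 11.2) stood above Tnfrsf10b (12.7 ± 1.44). In Lung, the ligand Tnfsf10 was the highest member at 1455 ± 29.1 per kb, next to Tnfrsf1a at 1342 ± 121. Fadd was at 24.8 to 43.6 per kb as a mean in all 5 groups, well below Casp8 at 361 to 602. These lengths merge all annotated exons, so a gene that uses a part of them is understated.

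Cflar and Casp8 lie 36.3 kb apart on the plus strand of chromosome 1 (58750321 to 58798047 and 58834375 to 58886665, GRCm39), and their ratio does not depend on the scaling of the samples. The ratio, chosen after the values were seen, was taken per kb within each sample. It was 0.932 ± 0.0575 in Lung (SD, n = 3), 0.307 ± 0.0470 in 46LCNEC_allo, 0.193 ± 0.0177 in 57SCLC_allo, 0.167 ± 0.0286 in 46LCNEC_cell and 0.0930 ± 0.00927 in 57SCLC_cell. Without division by exon length it was 4.37 in Lung, 1.44 in 46LCNEC_allo, 0.906 in 57SCLC_allo, 0.785 in 46LCNEC_cell and 0.436 in 57SCLC_cell. Which gene stood higher in Lung and 46LCNEC_allo depended on the lengths, while the folds between groups did not. The ratio was thus higher in the tumors than in the cells of the same line, by 1.84 times for 46LCNEC and 2.08 times for 57SCLC, with no overlap. It was lower in 57SCLC than in 46LCNEC in cells (a ratio of 0.559) and in allografts (0.631), again with no overlap. With 3 samples against 3, the two-sided exact permutation test of each of these differences gave 0.10, the smallest p it allows, so that none of them could pass 0.05.

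**Figure D2:**
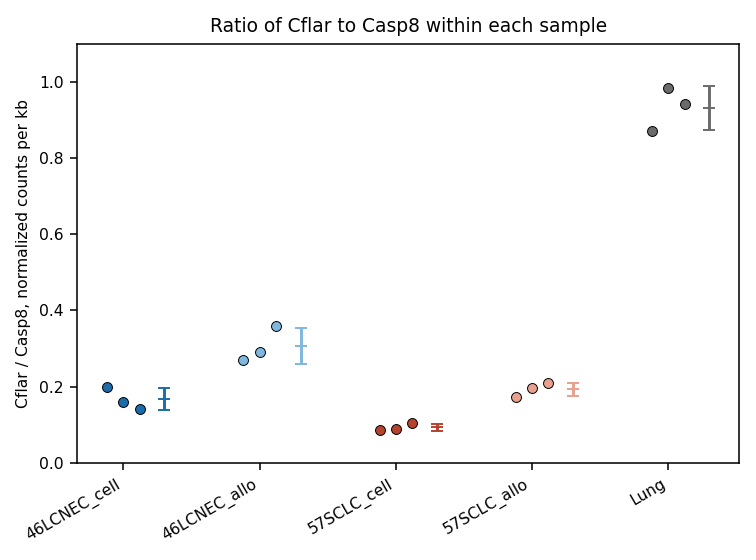
Ratio of Cflar to Casp8 in normalized counts per kb of exon, for each sample (points) with the mean and SD of the group (dash and bar, n = 3). Lung lies at 0.870 to 0.984, and all tumor and cell samples lie at or below 0.360. The level of the ratio depends on the exon lengths used.

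The first comparison asked how the cultured lines differ. The receptors among the members, Cflar and Ripk3 were lower in 57SCLC_cell than in 46LCNEC_cell, and Tnfsf10 was higher. Of the 9 members tested, 6 were called lower and 1 higher, against 22.2% of all 16920 genes tested called lower and 23.9% called higher. Fasl was too low to be tested. Fas and Ripk3 reached the 10 normalized counts needed for testing only in 46LCNEC_cell, so they could only come out lower. On the log2 scale, Tnfrsf10b differed by -4.56 (standard error 0.12, adjusted p = 1.91e-08), Tnfrsf1b by -3.71 (0.08, 1.24e-08), Tnfrsf1a by -2.10 (0.14, 2.85e-06) and Cflar by -1.58 (0.09, 1.35e-06). Fas was at least 81.2-fold higher in 46LCNEC_cell, taking the floor of 3 reads per flask for 57SCLC_cell (adjusted p = 8.9e-08). For Ripk3 the ratio of 46LCNEC_cell to 57SCLC_cell was 2194, with a 95% counting interval from 394 to 86676 because of the single read (adjusted p = 3.35e-08). Set at the floor of 3 reads per flask, as for Fas, this ratio was 228. Tnfsf10 was higher by 1.41 (standard error 0.38, adjusted p = 0.00949), a call that was lost without dishes A or C of 46LCNEC_cell or flasks A or B of 57SCLC_cell (adjusted p between 0.0256 and 0.0374). Fadd (0.80, standard error 0.26, adjusted p = 0.023) and Casp8 (-0.74, standard error 0.10, adjusted p = 0.000248) did not reach a call, Casp8 because of the fold threshold alone. Without flask C, Fadd was called (1.02, adjusted p = 0.0061). The median log2 fold change of the 9 members was -2.10, and of all genes 0.00028.

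The receptors, Cflar and Ripk3 were lower in the SCLC tumors as well, and there Tnfsf10 was lower too. In 57SCLC_allo against 46LCNEC_allo, 7 of 9 members were called lower, where 14.2% of the 17502 genes tested were called lower and 16.1% higher. Ripk3 differed by -2.79 (standard error 0.35, adjusted p = 0.000627), Fas by -2.71 (0.24, 0.000151), Tnfrsf1b by -2.13 (0.21, 0.000221), Tnfrsf10b by -2.10 (0.17, 0.000102) and Cflar by -1.20 (0.14, 0.000462). Tnfrsf1a differed by -1.41 (0.22, 0.00184), a call lost without tumor 316 (adjusted p = 0.0108). Tnfsf10 was lower by -1.85 (0.41, 0.00831), but without any one tumor other than 275 its adjusted p was between 0.0101 and 0.0312, past the threshold. Casp8 (-0.53) and Fadd (0.06) were not called. The median over the 9 members was -1.85, against 0.015 over all genes. The leukocyte, macrophage, endothelial and fibroblast marker sums of the tumors were also lower in 57SCLC_allo than in 46LCNEC_allo, without overlap, and their part in these differences was not tested. The T and NK cell and B cell sums overlapped between the tumor groups, as did the macrophage markers Cd68 and C1qa. The leukocyte marker Cd53 had means of 703 in 57SCLC_allo and 698 in 46LCNEC_allo.

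The difference between the lines was then compared between cells and allografts in 1 model of the 12 tumor-derived samples, which are the samples of both comparisons above. For 5 of 9 members it differed, 4 in the higher direction (less of a deficit of 57SCLC in allografts than in cells) and 1 in the lower, against 10.8% and 6.78% of 18440 genes. Tnfrsf10b changed by 2.46 (standard error 0.21, adjusted p = 3.64e-06) and Tnfrsf1b by 1.58 (0.23, 0.000314). The fitted values were 4.36 for Fas (0.37, 3.45e-06) and 5.59 for Ripk3 (0.45, 2.27e-06). They depend on the pseudocount, and taken against the floor of 3 reads in 57SCLC_cell the changes were 3.62 and 4.96. For Tnfsf10 the change was -3.26 (0.61, 0.00149), since 57SCLC had the higher level in cells and the lower in allografts. Tnfrsf1a (0.69, adjusted p = 0.0711), Cflar (0.38, 0.0977), Casp8 (0.21, 0.302) and Fadd (-0.74, 0.163) did not pass. The same 5 members were called with any 1 of the 12 samples left out.

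**Figure D3:**
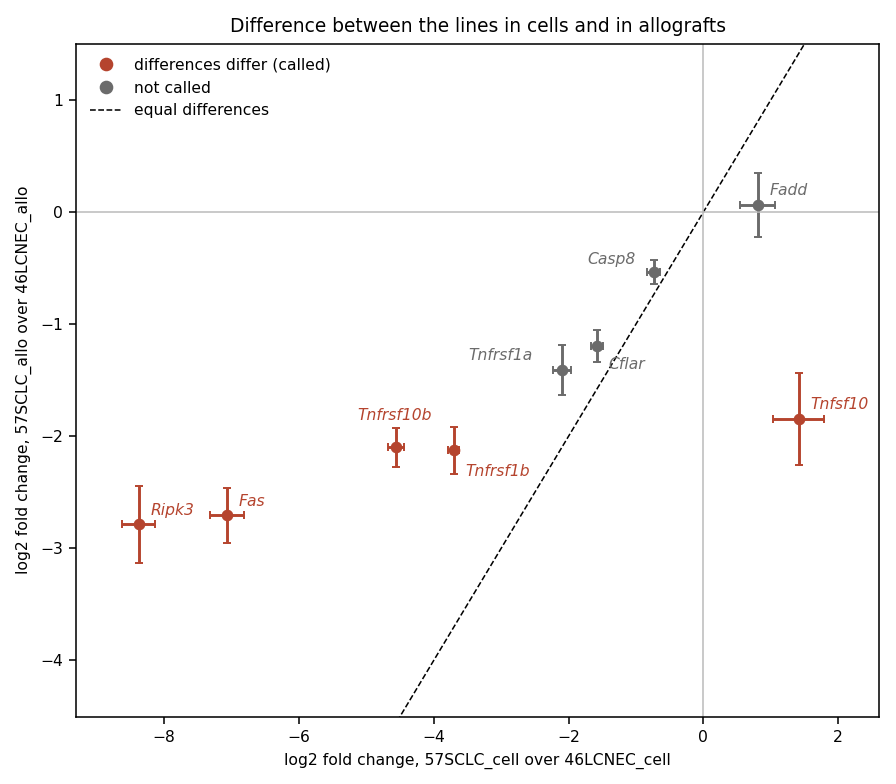
log2 fold change of 57SCLC over 46LCNEC in cells (horizontal axis) and in allografts (vertical axis) for the 9 members tested, with standard errors as bars (limma, n = 3 per group). Members whose difference changed between cells and allografts are in red. Ripk3, Fas, Tnfrsf10b and Tnfrsf1b lie above the dashed line of equal differences, and Tnfsf10 lies below it.

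Within a line, the tumors were compared with the cells they were grown from. In 57SCLC, 6 of 9 members were called higher in the tumors, where 14.4% of 17078 genes were called higher and 2.29% lower. Of these members, Fas and Ripk3 reached the 10 normalized counts needed for testing only in the tumors, so they could only come out higher. Tnfrsf10b rose by 2.05 (standard error 0.16, adjusted p = 2.49e-05), Tnfrsf1b by 1.77 (0.20, 0.000184) and Cflar by 1.13 (0.09, 2.68e-05). Fas was at least 22.0-fold higher in 57SCLC_allo (adjusted p = 7.31e-06), and the ratio for Ripk3 was 1251 with a counting interval from 224 to 49395, or 130 at the same floor as Fas (adjusted p = 9.01e-07). Tnfsf10 rose by 1.85 (0.37, 0.00489), with an adjusted p between 0.0118 and 0.0251 when flask B, flask C, tumor 275 or tumor 317 was left out. Tnfrsf1a had a log2 fold change of 0.81 (0.16, 0.00426), under the fold threshold. Fadd was at -0.44 (adjusted p = 0.144) and Casp8 at 0.08 (adjusted p = 0.613).

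In 46LCNEC, 2 of 9 members were called higher in the tumors, where 14.4% of 16375 genes were called higher and 8.45% lower. Tnfsf10 rose by 5.11 (standard error 0.42, adjusted p = 0.000108) and Ripk3 by 1.96 (0.31, 0.00177). The call of Ripk3 was lost without dish A or C (adjusted p = 0.0111 in both cases), so that 1 member remained. Cflar (0.75, adjusted p = 0.00404) and Fas (0.86, adjusted p = 0.0131) had smaller positive values, and Tnfrsf10b had -0.41 (adjusted p = 0.0525). The median over the members was 0.30 in 46LCNEC and 1.77 in 57SCLC, and near 0 over all genes in both (-0.00069 and 0.0044).

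The tumors also held other cells than the cultures. The leukocyte markers Ptprc, Cd53 and Laptm5 summed to 4601 to 8943 normalized counts in 46LCNEC_allo and 2422 to 3895 in 57SCLC_allo, against at most 15.1 in the cells of either line, and all 3 were detected in each allograft group. The 8 macrophage and monocyte markers summed to 42079 to 93054 in 46LCNEC_allo and 18308 to 32769 in 57SCLC_allo, with 7 of 8 detected, against 310.0 to 387 in the cells, where Adgre1 and C1qb were at or under the floor. The 5 endothelial markers summed to 5481 to 9416 and 2681 to 3732 in the allografts and to 35.6 to 385 in the cells, where Cdh5, Emcn and Tie1 were at or under the floor. In 57SCLC the 6 fibroblast markers summed to 24.0 to 31.1 in the cells and 32249 to 50894 in the tumors. In 46LCNEC they were already at 73984 to 84202 in the cells and reached 309554 to 688074 in the tumors. Most of this was collagen, with mean Col1a1 and Col1a2 at 20963 and 50209 in the cells and 223115 and 204229 in the tumors. In the cells Lum was at or under the floor and Dcn had a mean of 11.1, while Pdgfra and Pdgfrb had 1190 and 6346. All 4 of these lists thus moved with Fas, Ripk3, Tnfrsf10b, Tnfrsf1b, Cflar and Tnfsf10 in 57SCLC, and their part in these results was not tested. In bulk samples, fewer cells of a type and less RNA per cell cannot be told apart.

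Tumor 316 had the lowest leukocyte (2422), macrophage (18308), endothelial (2681) and fibroblast sums (32249) of 57SCLC_allo, and it also had the lowest value of the 3 tumors for all 10 members, such as Fas at 29.7, Ripk3 at 171, Tnfrsf10b at 277 and Tnfrsf1b at 730. In 46LCNEC_allo, the order of Ripk3 (2347, 1531 and 914 in tumors 312, 319 and 321) was that of the fibroblast sum (688074, 413580 and 309554). That sum was mostly Col1a1 and Col1a2. Tumor 321, the lowest for Ripk3, had the highest leukocyte sum (8943). The order of Tnfsf10 was the reverse of that of Ripk3. These orders are over 3 tumors each and carry no test.

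**Figure D4:**
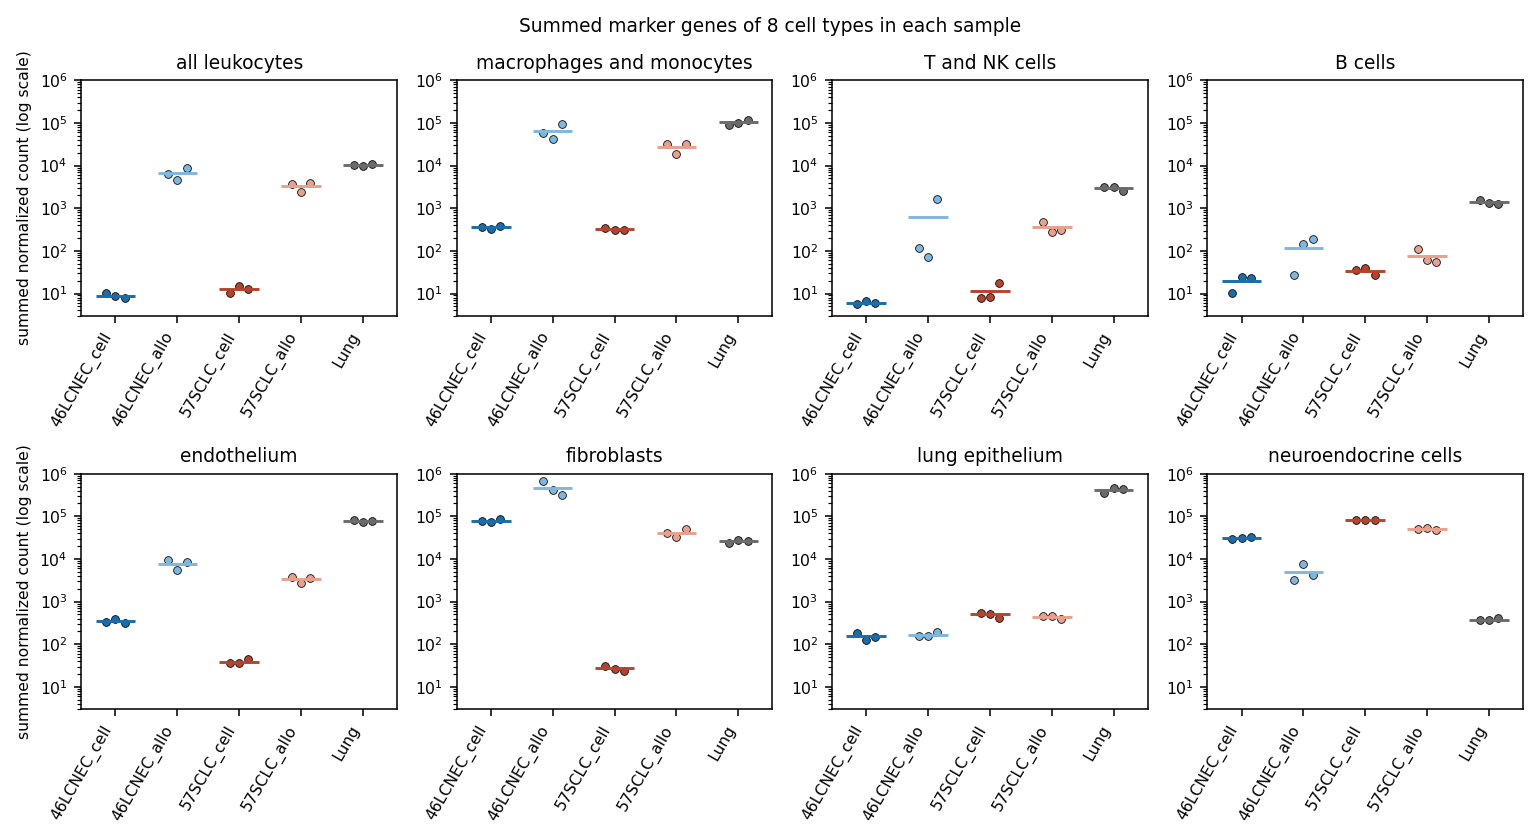
Summed normalized counts (log scale) of marker genes of 8 cell types in each sample, with group means as bars (n = 3). Leukocyte, macrophage and endothelial sums are low in the cells and higher in the allografts and Lung. The fibroblast sum of 57SCLC_cell lies at 24.0 to 31.1, far below all other groups, and the T and NK cell sum of tumor 321 lies above the other tumors of 46LCNEC_allo.

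The 4 comparisons with normal lung share the same 3 Lung samples, so their results are not independent of each other. In 57SCLC_cell, 8 of 10 members were called lower than in Lung, where 32.7% of 18467 genes were called lower and 21.1% higher. Tnfsf10 (-8.09), Fasl (-4.87), Cflar (-3.80), Tnfrsf10b (-3.47), Tnfrsf1b (-3.09) and Tnfrsf1a (-2.14) were among them, with adjusted p between 8.57e-09 and 4.62e-06. Lung had at least 860-fold more Fas (adjusted p = 9.16e-09), and a ratio of 2021 for Ripk3 with a counting interval from 363 to 79840, or 210 at the same floor (adjusted p = 7.18e-08). Fasl, Fas and Ripk3 reached the 10 normalized counts needed for testing only in Lung, so they could only come out lower. Fadd (0.23, adjusted p = 0.358) and Casp8 (-0.48, adjusted p = 0.00451) were not called. The median of the members was -3.64, against -0.12 over all genes. Marker sums of 4 kinds of other cells were high in Lung, and all 4 were lower in each tumor and cell group. Leukocytes summed to 9704 to 10787 and T and NK cells to 2523 to 3147. Endothelium summed to 72066 to 82279 and lung epithelium to 348240 to 456457. The fibroblast sum was 23513 to 27820 in Lung and higher in 46LCNEC_cell, 46LCNEC_allo and 57SCLC_allo, with only 57SCLC_cell below Lung. The macrophage sum of Lung (89345 to 119212) overlapped that of 46LCNEC_allo (42079 to 93054). The part of these sums in the comparisons with Lung, those of Tnfsf10, Fasl, Fas and Cflar included, was not tested.

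In 57SCLC_allo, 7 of 10 members were called lower than in Lung, against 26.9% of 18517 genes called lower and 18.9% higher. Tnfsf10 had -6.24 (standard error 0.29, adjusted p = 6.74e-07), Fas -5.27 (0.17, 1.41e-07), Cflar -2.67 (0.07, 8.85e-08), Tnfrsf10b -1.42 (0.13, 2.86e-05), Tnfrsf1b -1.32 (0.20, 0.000486) and Tnfrsf1a -1.32 (0.11, 1.84e-05). Fasl was lower by -3.74 (0.74, 0.00217), a call lost without CT3 (adjusted p = 0.0117) or CT4 (0.0116). It reached the 10 normalized counts needed for testing only in Lung, so it could only come out lower. Ripk3 had -0.70 (adjusted p = 0.0103) and was not called.

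46LCNEC_cell exhibited a mixed picture against Lung. Of 10 members, 4 were called lower and 1 higher, where 35% of 18142 genes were called lower and 20.6% higher. Tnfsf10 had -9.50 (standard error 0.28, adjusted p = 4.44e-09), Fasl -3.67 (0.34, 6.55e-06), Fas -3.42 (0.16, 7.75e-08) and Cflar -2.23 (0.08, 1.61e-08). Of these, Fasl reached the 10 normalized counts needed for testing only in Lung, so it could only come out lower. Tnfrsf10b was higher by 1.09 (0.10, 8.54e-06), and by 0.97 without CT4, just under the fold threshold. Tnfrsf1b (0.62), Casp8 (0.26), Ripk3 (0.13), Tnfrsf1a (-0.04, of the opposite sign with TMM scaling) and Fadd (-0.57) were not called. The share of members called lower was close to that of all genes, and the median of the members (-0.30) lay near that of all genes (-0.23).

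In 46LCNEC_allo, 3 of 10 members were called lower than in Lung and 1 higher, against 22.1% and 13.4% of 18033 genes. Tnfsf10 had -4.39 (standard error 0.25, adjusted p = 2.75e-05), Fas -2.56 (0.10, 9.34e-06) and Cflar -1.47 (0.13, 0.000145). Ripk3 was higher by 2.09 (0.34, 0.00185), with an adjusted p of 0.0106 without CT4 and 0.0107 without CT5. Fasl (-3.54, standard error 1.24, adjusted p = 0.0435) was not called, and tumor 321 lay near Lung. Without that tumor it was called at -5.05 (adjusted p = 0.000247). Tnfrsf1b (0.80), Tnfrsf10b (0.68), Casp8 (0.13), Tnfrsf1a (0.09) and Fadd (-0.27) were not called.

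**Figure D5:**
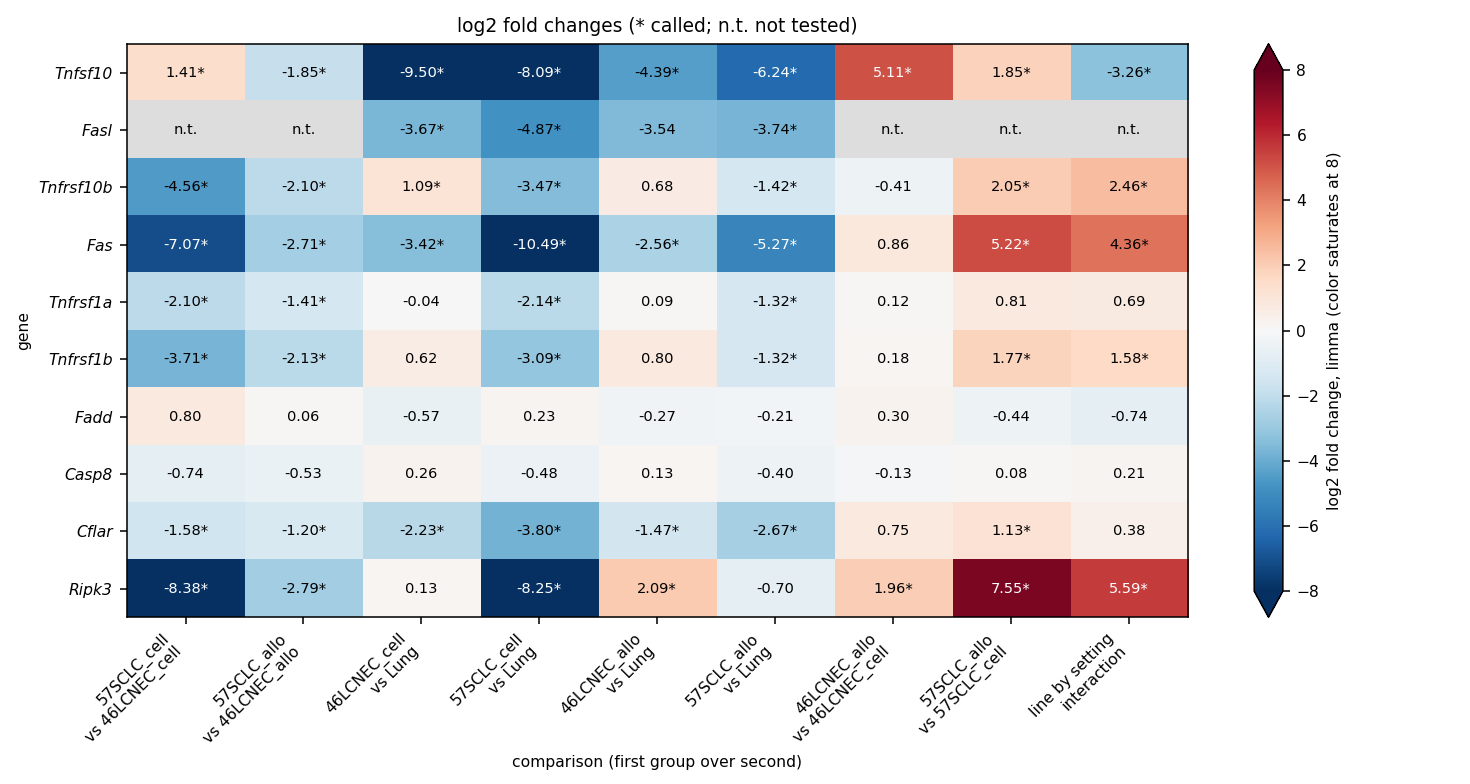
log2 fold change of each member (rows) in the 8 comparisons and in the model of cells against allografts (columns), with limma. An asterisk marks a call and n.t. a member too low to be tested. Values of Fas and Ripk3 against 57SCLC_cell depend on the pseudocount. Fadd and Casp8 have no asterisk in any column.

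Across all columns, Fadd and Casp8 were the 2 tested members without a call in any comparison. Tnfsf10, Fas and Cflar were each called in every comparison between lines and with Lung. By Pearson correlation of log2 values over the 15 samples, which fall into the 5 groups, the genes most like Casp8 among 15073 with a name and a mean of 50 or more were Ripk1, the kinase of the TNF receptor complex (0.974), and Plbd2 (0.962). Those most like Tnfrsf10b were Fzd2 (0.995) and Dzip1l (0.992), and those most like Ripk3 were Ebf1 (0.996) and Postn, a matrix gene of fibroblasts (0.995). These correlations largely describe the group means.

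A further 40 genes of the pathway were read in 5 lists. Of them, 3 were at 0 in all samples (Tnfsf12, Tnfrsf22 and Diablo). Tnfsf12 and Diablo share 52.4% and 56.0% of their exon bases with another gene on the same strand, and the part of this overlap was not tested. In 57SCLC_cell against 46LCNEC_cell, 12 of 30 tested genes were called lower and 3 higher, beside 22.2% and 23.9% of all genes. Among the receptor complex and ubiquitin genes, 4 of 13 were lower, led by Traf1, an adaptor induced by NF-kB (-5.84, adjusted p = 2.57e-07), and Tnfaip3, the A20 enzyme that limits NF-kB (-3.64, adjusted p = 2.03e-07), and Rnf31 of the linear ubiquitin complex was the 1 that was higher (1.12, adjusted p = 0.000104). Bid, which Casp8 cleaves and which links it to the mitochondria, was lower by -3.12 (adjusted p = 5.82e-08). Mlkl, the effector of necroptosis, was lower by -1.39 (adjusted p = 5.19e-06). It was still read at 424, 440 and 359 normalized counts in 57SCLC_cell, the cells without Ripk3. Among other receptors, Tnfrsf25 (2.24, adjusted p = 5.87e-06) and Tnfrsf21 (1.06, adjusted p = 6.59e-05) were higher. The call of Tnfrsf21 was lost on the fold threshold without dish B of 46LCNEC_cell or flask A of 57SCLC_cell. Tnfrsf12a was lower (-4.12, adjusted p = 8.42e-08), but all its exon bases lie opposite Hcfc1r1. Its reads thus cannot be told apart from those of that gene without strand. Reads of Tnfrsf23 (-6.19, adjusted p = 1.81e-06) may likewise be shared with its close copy Tnfrsf22, and the ligand Tnfsf11 was lower by -5.34 (adjusted p = 5.21e-07).

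In 57SCLC_allo against 46LCNEC_allo, 6 of 37 of these genes were called lower, near the share of 14.2% among all genes. Among them were Casp6 (-2.49, adjusted p = 0.000538) and Mlkl (-1.84, adjusted p = 0.000828). The tumors of 57SCLC had 12 of 35 genes called higher than their cells, where 14.4% of all genes were. They included Zbp1, a sensor that can activate Ripk3 (6.55, adjusted p = 1.43e-05), the lymphocyte ligand Ltb (5.27, adjusted p = 2.71e-05), Traf1 (4.77, adjusted p = 9.81e-06) and Tnfaip3 (2.48, adjusted p = 6.08e-06). In 46LCNEC, 4 of 35 were called higher in tumors and 1 lower, near or below the shares of all genes (14.4% and 8.45%). Zbp1 rose by 5.95 (adjusted p = 0.000491), and Tnfrsf12a fell by 1.64 (adjusted p = 0.000135). Zbp1 and the ligand Tnf followed tumor 321 in 46LCNEC_allo, with 2101 and 181 normalized counts there against 267 to 486 and 50.3 to 69.5 in the other tumors of the group.

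Against Lung, Bid was called higher in 46LCNEC_cell (3.16, adjusted p = 2.25e-09) and 46LCNEC_allo (2.29, adjusted p = 0.000654), and Mlkl as well (1.73, adjusted p = 1.65e-06, and 1.80, adjusted p = 0.00109). Of the 37 genes tested, 14 were lower and 6 higher in 46LCNEC_cell, 15 and 1 in 57SCLC_cell, 3 and 6 in 46LCNEC_allo and 12 and 1 in 57SCLC_allo. The shares of all genes called lower and higher were 35% and 20.6%, 32.7% and 21.1%, 22.1% and 13.4%, and 26.9% and 18.9% in the same order, so the count of lower genes in 46LCNEC_cell was near its background. Of the exon bases of Bid, 34.5% lie opposite other genes.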

How the data were processed

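Paired-end reads were mapped by the authors with Rbowtie2 (GRCm39) and assigned to genes of GENCODE release 27 by featureCounts. The deposited signal values are these counts after division by DESeq2 size factors. Strand and multi-mapping settings are not given in the sources used here. Reads were recovered as whole multiples (tolerance 0.01) of the smallest step of each sample.

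The planned tests assumed raw counts. As the values were normalized, limma 3.58.1 (R 4.3.3, with trend) was used on log2(normalized count + 1) of the 6 samples compared, for genes with at least 10 normalized counts in 3 of them. A gene that reached 10 normalized counts in 1 group alone could only come out higher there. Calls needed a Benjamini-Hochberg adjusted p of 0.01 and a log2 fold change of 1. Fold changes on this scale understate changes of low genes. Alternatives were edgeR 4.0.16, DESeq2 1.42.0, TMM scaling, pseudocounts of 0.1 and 5, no filter, 1 model of all 15 samples, a block by culture letter, and each sample left out. On simulated data the fits recovered the planted changes. These all exceeded the fold threshold, genes with a low mean were left out, and the spread was set at a fixed value. The simulation therefore does not bear on calls near the threshold or the floor.

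The members and lists were chosen with earlier results of these data known. All members were named. Of each other list, at most 2 called genes per direction were named, those with the largest change among genes with 50 normalized counts or more in each sample of the higher group. Results for some genes this names are not reported here. Coordinates come from GENCODE release M39, promoter windows from RefSeq.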

Additional observations from a re-analysis of the deposited data

Results flagged for a closer look

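For 5 members, the difference between the lines was not the same in cells and in allografts by the test of that difference (limma over 12 samples). The change from cells to allografts was 2.46 for Tnfrsf10b (adjusted p = 3.64e-06), 4.36 for Fas (adjusted p = 3.45e-06), 1.58 for Tnfrsf1b (adjusted p = 0.000314), 5.59 for Ripk3 (adjusted p = 2.27e-06) and -3.26 for Tnfsf10 (adjusted p = 0.00149), on the log2 scale. For Fas and Ripk3 the fitted values rest on reads at or under the floor in 57SCLC_cell, and their changes against that floor were 3.62 and 4.96. The markers of leukocytes, endothelium and fibroblasts also differed between cells and allografts, and their part was not tested.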

How the results depend on the processing

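The number of members called stayed within 1.5 times under every other tool, scaling, pseudocount and filter, and with all 15 samples in 1 model. With 1 sample left out, it ranged from 1 to 2 in 46LCNEC_allo against 46LCNEC_cell, the lower value without dish A or C. Over all genes, 2428 were called there without dish C, against 3738. Of 2067 gene-level values, 2013 kept direction and side of the threshold, 43 lost the call, 3 gained it and 8 reversed, each of the latter uncalled. For Tnfrsf1a in 46LCNEC_cell against Lung, -0.04 turned to 0.092 with edgeR, 0.054 with DESeq2 and 0.094 with TMM (which moved the median of all genes by 0.12, 0.085 and 0.14), and ranged from -0.091 to 0.034 with 1 sample left out. Leaving 1 sample out gave -0.18 to 0.24 for Fadd between allografts, -0.16 to 0.24 for Tnfrsf1a in 46LCNEC_allo against Lung, -0.12 to 0.28 against 46LCNEC_cell, and -0.0095 to 0.14 for Casp8 in 57SCLC_allo against 57SCLC_cell. The cause was not tested. Tnfsf10 between the cultured lines also lost its call at a pseudocount of 0.1 (adjusted p = 0.0158) and without the filter (0.014). Fasl in 57SCLC_allo against Lung lost its call at a pseudocount of 0.1 (adjusted p = 0.0218), and Fasl in 46LCNEC_allo was called with all 15 samples in 1 model (adjusted p = 0.0076). The culture letters did not pair the samples (correlations of deviations of 0.092, -0.084 and -0.0062 for A, B and C). With the replicate block, 6 members were called between the cultured lines in place of 7, Tnfsf10 being lost. Fasl had 4 reads in all in 57SCLC_cell and was tested against Lung alone.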

Other observations

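Birc2 and Birc3, the neighbouring inhibitors of apoptosis that ubiquitinate Ripk1, had 10591 and 10975 normalized counts in tumor 312 of 46LCNEC_allo. In tumors 319 and 321 they lay between 1224 and 1787, so the level of the group rested on 1 tumor, and neither gene was called against Lung or the cells. They are named here after their values were seen. In 46LCNEC_cell, the cells of that line, Birc3 lay between 586 and 651.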
